A study of Mus musculus with 7 samples.

Results

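The genes described here are the leptin receptor gene Lepr, the receptor genes of the gp130 cytokine family Il6st, Lifr, Osmr and Il11ra1, and the signaling genes downstream of them, Jak1, Jak2, Stat3, Socs2 and Socs3. They were taken by name, 10 of the 53801 genes counted, and all 10 passed the filter on low counts that left 12930 genes for testing. RNA was measured in bone marrow mesenchymal stromal cells of male C57BL/6 mice, 8 weeks old when treatment began. The FAPi group, 4 mice, was given a daily intraperitoneal dose of 500 µg/kg of a FAP inhibitor for 35 days. FAP, fibroblast activation protein, is a membrane-bound serine protease. The 3 mice of the DPBS group received the buffer alone on the same schedule, in the same volume of 100 µl. The labels name no compound. Each library came from 7000 live cells of the limb bones sorted for Pdgfra, with cells bearing CD45, Ter119 or Tie2 removed, so it averages over every cell type in that gate.

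Receptors of this family have no kinase activity of their own. Binding of a cytokine brings the receptor chains together, the attached Janus kinases phosphorylate them, and the transcription factor STAT3 docks, is phosphorylated and enters the nucleus. One of its targets is Socs3, whose protein binds the receptor and kinase and shuts the signal off. In adult marrow the leptin receptor is the usual marker of the perivascular stromal cells that make the niche factors Cxcl12 and Kitl. Because STAT3 is controlled by phosphorylation, the levels of these transcripts do not measure how active the pathway was.

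The promoters of 2 of these genes are shown, Socs3 because it is the feedback target of STAT3 and Lifr because it had the one difference without overlap between the groups. The sequences are RefSeq's for build GRCm38.p6, read 5′ to 3′ on the gene's strand, from 250 bases before an annotated start up to the first base that GENCODE assigns to an exon of the gene. The letters searched were TTCNNNGAA, a STAT binding motif that reads the same on both strands, and a match is in capitals.
Socs3 (chr11:117969452-117969616, minus strand): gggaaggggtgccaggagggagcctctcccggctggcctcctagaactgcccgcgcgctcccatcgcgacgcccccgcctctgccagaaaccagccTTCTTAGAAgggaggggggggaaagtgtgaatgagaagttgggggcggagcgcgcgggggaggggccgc
Lifr, first RefSeq start (chr15:7129322-7129558, plus strand): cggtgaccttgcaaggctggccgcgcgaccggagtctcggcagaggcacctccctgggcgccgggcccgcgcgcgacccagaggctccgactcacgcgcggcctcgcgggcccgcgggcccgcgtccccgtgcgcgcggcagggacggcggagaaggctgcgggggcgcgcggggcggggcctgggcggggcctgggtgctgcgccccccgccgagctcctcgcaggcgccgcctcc
Lifr, second RefSeq start (chr15:7140292-7140541, plus strand): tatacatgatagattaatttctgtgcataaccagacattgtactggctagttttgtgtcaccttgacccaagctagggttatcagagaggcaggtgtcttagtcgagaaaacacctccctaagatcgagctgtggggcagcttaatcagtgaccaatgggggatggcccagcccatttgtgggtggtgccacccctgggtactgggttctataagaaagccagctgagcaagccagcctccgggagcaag
The Socs3 sequence holds TTCTTAGAA, beginning 154 bases before the RefSeq start, and neither Lifr sequence holds a match. RefSeq windows were found for 9 of the 10 genes, 12 windows in all, and the Socs3 window was the 1 with a match among the 12. Over all 32851 windows of the same 250 bases, 7.02% hold the motif. A match is a description of the letters and not a binding site. Both Lifr windows lie inside the gene as GENCODE annotates it, downstream of its first base at 7090614, and the Socs3 window also lies inside the GENCODE gene, whose upstream end is at 117970047. The counts are per gene, so they do not say from which start the reads came.

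Gene counts per library ranged from 7492570 to 10569690. The sort was checked against marker lists. Pdgfra stood between 315 and 438 CPM (counts per 1000000 counts of a library, scaled by the trimmed mean of M-values, TMM, here and below unless stated). Tek, which encodes Tie2, was at 1.6 CPM or less and Ptprc, which encodes CD45, at 5.26 CPM or less. All 9 reticular stroma markers were present, led by Cxcl12 and Adipoq, and their summed level ranged from 22268 to 25957 CPM in DPBS and from 20540 to 27625 CPM in FAPi libraries. The 7 osteoblast markers were present too, at uneven levels. Over all libraries Ibsp ranged from 10017 to 17275 CPM, and Col1a1, Bglap and Runx2 were each at 329 CPM or more. Alpl lay between 44.7 and 256 CPM, Sp7 at 36.8 CPM or less and Dmp1 at 15.3 CPM or less. The summed level of the 7, led by Ibsp and Col1a1, ranged from 14159 to 25760 CPM in DPBS and from 12409 to 22718 CPM in FAPi libraries. Hemoglobin and other erythroid transcripts were present in every library. The summed level of the 8 erythroid markers, led by Hba-a1 and Hbb-bs, ranged from 1854 to 15821 CPM in DPBS and from 1615 to 3267 CPM in FAPi libraries, and that of the 8 neutrophil markers, led by S100a8 and Camp, from 598 to 2596 and from 181 to 604 CPM. All 16 of these markers had a lower estimate in FAPi mice. DPBS replicate 2 was the highest library in both lists. B cell markers stood at 190 CPM in DPBS replicate 2 and 152 CPM in FAPi replicate 1, summed over 5 genes, and between 8.90 and 13.2 CPM in the other libraries. Of the endothelial markers Kdr was at 339 CPM in FAPi replicate 1 and at most 15.4 CPM elsewhere. The other endothelial markers did not follow Kdr in that library. Pecam1, Emcn and Vwf stood at 12.1, 3.75 and 8.00 CPM there, inside the range of the other libraries. Cdh5 was at 1.9 CPM, its lowest level, and Tek at 0. The summed level of 5 chondrocyte markers ranged from 68.9 to 79.8 CPM in DPBS and from 85.2 to 158 CPM in FAPi libraries, without overlap, with Matn1 at 0 counts throughout. The mean log2 level of the 3 tested did overlap, ending at 4.653 in DPBS and beginning at 4.651 in FAPi libraries. Of these 3, 2 estimates were higher and 1, that of Comp, was lower, and none separated the groups alone. In sorted bulk RNA, fewer cells of a type and less RNA per cell cannot be told apart.

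None of the 10 genes passed the test between FAPi and DPBS mice (edgeR's quasi-likelihood test, adjusted p from 0.490 to 0.992 over all 12930 genes tested). Over all genes none passed, 0 of 12930 or 0%, with 1053 at an unadjusted p under 0.05. DESeq2 called 135 genes, 1.04% of those tested, and none of the 10. At an unadjusted p under 0.05 there were 2 of the 10, Lifr and Socs2, both with a higher estimate in FAPi mice, where 8.14% of all genes tested lay under that value, 4.45% with a higher and 3.69% with a lower estimate. The groups did not overlap at 1 of the 10, Lifr, against 7.34% of all genes tested, 3.39% with FAPi higher and 3.95% with FAPi lower. Counts of 1 and 2 in a set of 10 genes are not read here as a result about the set. The median log2 difference of the 10 was 0.18, against 0.01 over all genes tested, and that of all genes is -0.16 when libraries are scaled by their totals alone. With TMM scaling the estimate was above 0 for 9 of the 10, against 50.6% of all genes. Under scaling by library totals those of Lepr, Osmr, Jak2 and Stat3 fall below 0, as does the median of all genes. They were -0.027, -0.13, -0.042 and -0.15 in turn, each above that median of -0.16. The share of all genes above 0 was not computed under that scaling.

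**Figure D1:**
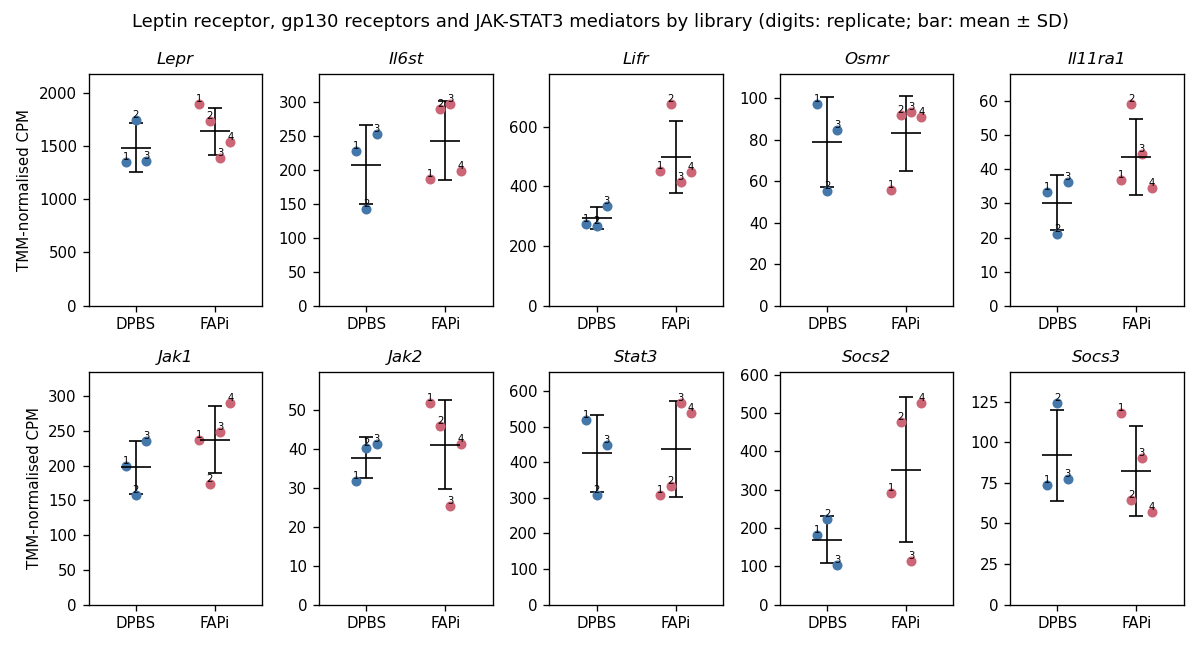
TMM-normalised CPM of the 10 genes in every library, on linear axes that start at 0, with DPBS in blue, FAPi in red, the replicate number above each point and the mean ± SD as a bar. The groups separate for Lifr, where DPBS libraries end at 334 CPM and FAPi libraries begin at 413 CPM, and overlap for the other genes.

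Levels of different genes were compared per kilobase of annotated exon, since longer transcripts collect more reads. Lepr was the most abundant of the 10, at 223 ± 31.3 CPM per kb (SD, n = 7), and lay above every other member in all 7 libraries. Next came Stat3 at 45.3, Lifr at 38.0, Jak1 at 30.5, Socs3 at 29.9, Socs2 at 28.7 and Il6st at 20.6 CPM per kb. Between neighbours in that run the order held in 4 or 5 of the 7 libraries, so neighbours did not differ beyond the spread. Of genes farther apart in it, Stat3 and Lifr each lay above Il6st in 7 of 7 libraries. Other distant pairs did not all keep their order. In FAPi replicate 2, for example, Socs2 was at 50.1 and Stat3 at 35.0 CPM per kb. The lowest group was Il11ra1 at 8.49, Jak2 at 7.91 and Osmr at 6.72 CPM per kb, and Il6st lay above Il11ra1 in 7 of 7 libraries. Within the lowest group the order held in 3 of 7 libraries for Il11ra1 over Jak2 and in 5 of 7 for Jak2 over Osmr. The exon length used joins all annotated transcripts of a gene and can exceed the length of the transcript that these cells make.

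**Figure D2:**
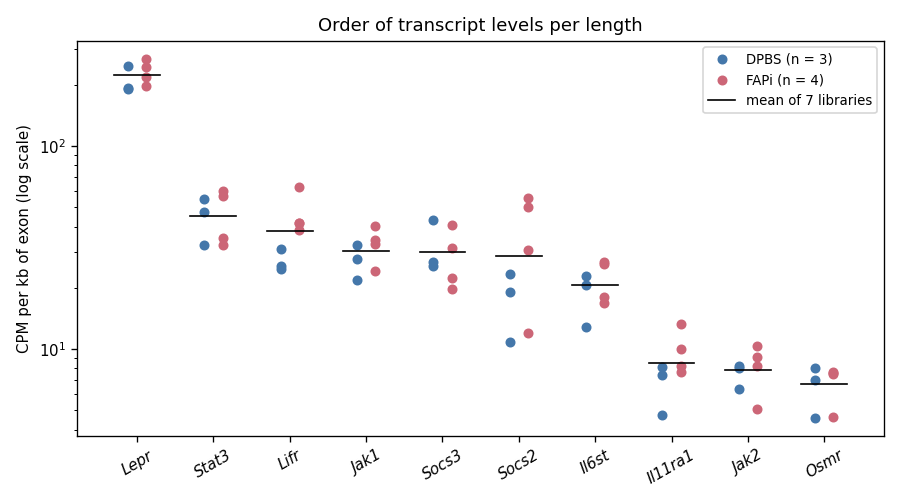
CPM per kilobase of annotated exon for each gene in each of the 7 libraries on a log axis, ordered by the mean (black line), with DPBS in blue and FAPi in red. Lepr stands alone at 223 on average, 6 genes follow between 20.6 and 45.3, and Il11ra1, Jak2 and Osmr lie between 6.72 and 8.49.

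Lepr (ENSMUSG00000057722.17, chromosome 4, 101717404 to 101815352, mm10) encodes the receptor for the fat cell hormone leptin. Its level in DPBS replicates 1 to 3 was 1348, 1748 and 1359 CPM, and in FAPi replicates 1 to 4 it was 1896, 1732, 1390 and 1535 CPM. The groups overlapped, with DPBS replicate 2 above 3 of the 4 FAPi libraries. The log2 difference was 0.14 ± 0.21 (SE, n = 3 and 4), with a 95% interval from -0.32 to 0.61, so a change of 2-fold in either direction lies outside it. Lepr was the steadiest of the 10. Its within-group coefficient of variation was 14.3%, where the median of 62 genes within 0.5 log2 units of its level was 26.7%. The counts do not separate the long signaling form of the receptor from its short forms. Leprot, a neighbouring gene whose product holds the leptin receptor inside the cell, lies apart from Lepr in the annotation and shares no exon bases with it. Its levels were 58.7 to 107 CPM in DPBS libraries, 66.5 to 89.7 CPM in FAPi replicates 1 to 3 and 224 CPM in FAPi replicate 4.

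Of the 5879 genes whose mean reached 20 CPM, those whose log2 CPM followed Lepr most closely over the 7 libraries were Pfdn5 (Pearson r = 0.964), Slc25a36 (0.956), Tmem258 (0.955), Hacd1 (0.955) and Ppil3 (0.954). These are the highest of 5879 values over 7 points that share libraries and depth, and are given as a description only. Pfdn5 encodes a subunit of the folding chaperone prefoldin. Its level ranged from 104 to 164 CPM in DPBS and from 118 to 183 CPM in FAPi libraries, with the highest library of each group the same as for Lepr.

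Il6st (ENSMUSG00000021756.12, chromosome 13, 112464070 to 112510086) encodes gp130, the chain that all receptors of the IL-6 family share. Its DPBS levels were 229, 142 and 253 CPM and its FAPi levels 187, 290, 298 and 199 CPM. DPBS replicate 2 was lowest and the groups overlapped. The log2 difference was 0.23 ± 0.29, and 0.01 without DPBS replicate 2. Leaving out that library also moved the estimates of Lepr to 0.27, Il11ra1 to 0.33, Jak1 to 0.13, Osmr to -0.14 and Stat3 to -0.15, while Lifr stood at 0.70 and Socs2 at 1.31.

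Lifr (ENSMUSG00000054263.12, chromosome 15, 7090614 to 7197489) encodes the chain that joins gp130 to bind leukemia inhibitory factor. It had 275, 267 and 334 CPM in DPBS replicates 1 to 3 and 451, 676, 413 and 447 CPM in FAPi replicates 1 to 4. All 4 FAPi libraries lay above all 3 DPBS libraries, and they did so also in the authors' deposited CPM, where DPBS ended at 337 and FAPi began at 403. The means were 292 ± 36.8 (SD, n = 3) and 497 ± 121 CPM (SD, n = 4). The log2 difference of 0.77 ± 0.25, with a 95% interval from 0.21 to 1.32, did not pass the test over all genes (edgeR, adjusted p = 0.490, unadjusted p = 0.0115). FAPi replicate 2 was the highest library, and without it the difference was 0.57. With the mean of the erythroid and neutrophil markers as a covariate it was 0.66 ± 0.33 (edgeR, unadjusted p = 0.0760). The summed chondrocyte markers were also higher in every FAPi library, while their mean log2 level overlapped between the groups. Their part in the Lifr difference was not tested.

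Osmr (ENSMUSG00000022146.12, chromosome 15, 6813577 to 6874969) encodes the oncostatin M receptor chain, which also pairs with gp130. It lies next to Lifr on the same chromosome, transcribed from the other strand. Its levels were 97.3, 55.1 and 84.9 CPM in DPBS libraries and 56.0, 92.0, 93.3 and 90.9 CPM in FAPi libraries. One library of each group was low, DPBS replicate 2 and FAPi replicate 1, and the log2 difference was 0.07 ± 0.33. Lifr per kilobase was 4.35 ± 1.13 times Osmr in DPBS and 6.96 ± 2.01 times in FAPi libraries, ranging from 3.18 to 5.44 and from 4.98 to 9.06, so the ratios overlapped.

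Il11ra1 (ENSMUSG00000073889.10, chromosome 4, 41699989 to 41769474) encodes the interleukin-11 receptor, whose signal promotes bone formation in mice. It had 33.4, 21.0 and 36.2 CPM in DPBS and 36.7, 59.2, 44.5 and 34.5 CPM in FAPi libraries, with overlap and a log2 difference of 0.53 ± 0.39. Its values are uncertain, since 46.3% of its 50-base stretches also occur in transcripts of the near-identical genes Gm13305 and Il11ra2. Both copies had 0 counts in every library. The sources used here do not say how reads shared between copies were counted, so the Il11ra1 level may be incomplete. For the other 9 genes this share was between 0% and 4.58%.

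Both kinases and the transcription factor overlapped between the groups. Jak1 (chromosome 4, 101152367 to 101265282), the kinase on which gp130 signals chiefly depend, had 199, 158 and 235 CPM in DPBS and 237, 174, 248 and 291 CPM in FAPi libraries. The log2 difference was 0.27 ± 0.27. With the erythroid and neutrophil marker mean as a covariate the Jak1 estimate was -0.02, so its sign depends on that term. Jak2 (chromosome 19, 29251828 to 29313080), which pairs with the leptin receptor, had 31.8 to 41.5 CPM in DPBS and 25.4 to 52.0 CPM in FAPi libraries, with a log2 difference of 0.12 ± 0.38. Jak1 per kilobase was between 2.63 and 6.81 times Jak2 in the 7 libraries. Stat3 (chromosome 11, 100885098 to 100939540) had 521, 308 and 448 CPM in DPBS and 308, 333, 568 and 539 CPM in FAPi libraries. Both groups spanned about the same range, and the log2 difference was 0.04 ± 0.30, with a 95% interval from -0.62 to 0.70.

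Of the 2 feedback genes Socs2 varied more between libraries of a group. Socs2 (chromosome 10, 95385362 to 95417180) encodes an inhibitor known best for restraining growth hormone signals through STAT5. Its levels were 182, 223 and 103 CPM in DPBS and 291, 477, 114 and 527 CPM in FAPi libraries. In FAPi mice 3 libraries lay above every DPBS library, while FAPi replicate 3 lay beside the lowest one. The means were 169 ± 61.2 and 352 ± 189 CPM, and the log2 difference of 1.06 ± 0.48 did not pass (edgeR, adjusted p = 0.607, unadjusted p = 0.0488). Its within-group coefficient of variation was 55.2%, where the median of 467 genes of like level was 25.5%.

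Socs3 (chromosome 11, 117966079 to 117970047), the feedback target of STAT3 whose promoter is shown above, had 73.6, 124 and 77.5 CPM in DPBS and 118, 64.2, 90.2 and 57.1 CPM in FAPi libraries. The groups overlapped in part, with FAPi replicates 2 and 4 below every DPBS library and DPBS replicate 2 above every FAPi library. The log2 difference of Socs3 was -0.16 ± 0.35, and 0.12 without DPBS replicate 2, the library with the highest Socs3 level. Its within-group coefficient of variation was 32.3%, close to the median of 33.1% for genes of like level. The ratio of Socs3 to Socs2 per kilobase ranged from 0.357 in FAPi replicate 4 to 2.61 in FAPi replicate 3, and the DPBS libraries lay inside that range.

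**Figure D3:**
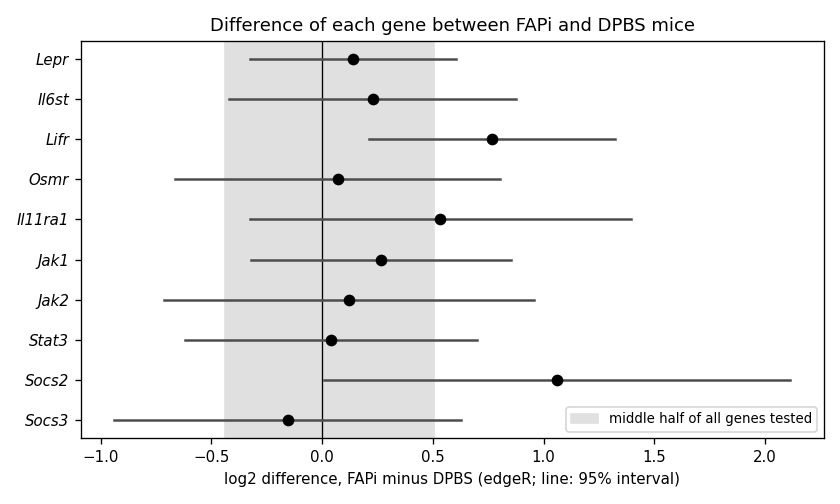
Log2 difference of each gene, FAPi minus DPBS, from the edgeR fit, with its 95% interval as a line and the range between the quartiles of all 12930 genes tested (-0.44 to 0.50) shaded. Lifr and Socs2 lie above 0 with their whole intervals, which are not adjusted for the number of genes, and the other 8 intervals include 0. The Socs2 interval begins at 0.0068, close to 0.

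Among the 10 genes, 3 relations over the 7 libraries were computed on log2 CPM, with Benjamini-Hochberg adjustment over the 3. Stat3 and Socs3 had a Pearson r of -0.566 (two-sided exact permutation p = 0.194, adjusted p = 0.246) and a Spearman rho of -0.500 (exact permutation p = 0.267, adjusted p = 0.302). Lepr and Il6st had r = -0.503 (exact permutation p = 0.246, adjusted p = 0.246) and rho = -0.536 (exact permutation p = 0.236, adjusted p = 0.302). Neither relation passed. DPBS replicate 2 and FAPi replicate 1 were the libraries farthest from the median of Stat3 and of Lepr, and without them r was 0.326 and 0.163. Both negative values thus rest on those libraries. Leaving out the farthest libraries also narrows the range, which by itself weakens a correlation. The same 2 libraries had the high B cell markers, whose part in these relations was not tested. Socs3 is also an early response gene, of the kind that tissue digestion can induce. Its relation to the mean of 14 early response genes, such as Fos and Egr1, had r = 0.532 (exact permutation p = 0.224, adjusted p = 0.246) and rho = 0.464 (exact permutation p = 0.302, adjusted p = 0.302). Without FAPi replicates 2 and 3 that r was 0.474. The early response mean ranged from 4.99 to 6.37 log2 CPM in DPBS and from 4.77 to 6.65 log2 CPM in FAPi libraries, and its part in the Socs3 level was not tested further.

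The ligands of these receptors were scarce in the sorted cells. Among the ligand genes, Lep, Il11, Il27 and Ebi3 had 0 counts in all 7 libraries. For counting error alone this allows a level of up to 0.284 to 0.400 CPM per library, here by library total without TMM scaling. Lif, whose receptor gene Lifr was well expressed, did not exceed 0.257 CPM, and Cntf was listed at no more than 0.129 CPM. The Cntf value is uncertain, since 78.9% of its exon bases also belong to Zfp91 on the same strand, where gene counting may assign no read to it. Osm and Ctf1 were highest in DPBS replicate 2, the library richest in blood transcripts, at 5.05 and 6.31 CPM, and at most 0.834 and 1.25 CPM elsewhere. The 2 ligand genes that could be tested were Il6 and Clcf1, the latter encoding cardiotrophin-like cytokine factor 1. Il6 had 1.78, 4.31 and 0.469 CPM in DPBS replicates and 9.12, 10.7, 0.348 and 0.556 CPM in FAPi replicates, so in each group the libraries fell on both sides of 1 CPM. Clcf1 had 3.58 to 6.78 CPM in DPBS libraries and 4.37 to 6.81 CPM in 3 FAPi libraries, but 22.7 CPM in FAPi replicate 2. Its log2 difference of 0.94 was 0.06 without that library.

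The other receptor genes included Ghr, the growth hormone receptor, whose mean was 263 ± 31.9 CPM (SD, n = 3) with DPBS and 334 ± 42.5 CPM (SD, n = 4) with FAPi (log2 difference 0.34 ± 0.23). Il6ra, the specific chain for interleukin-6, was uneven, from 1.68 to 10.04 CPM in DPBS and from 0.750 to 26.8 CPM in FAPi libraries. Prlr, the prolactin receptor, had 0 counts throughout. Of the 44 other genes of the pathway listed, 29 could be tested, with 22 estimates higher and 7 lower, where 50.6% of all genes were higher. Their median log2 difference was 0.24 against 0.01 over all genes. The median of all genes is -0.16 when libraries are scaled by their totals alone. None passed the edgeR test. The 1 gene under an unadjusted p of 0.05, where 8.14% of all genes lay, was Sos1, which encodes an exchange factor that links receptors to Ras.

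Sos1 had 7.67, 9.36 and 8.82 CPM in DPBS and 9.37, 73.4, 78.9 and 32.1 CPM in FAPi libraries. Sos1 was the 1 of the 29 genes tested without overlap, against 7.34% of all genes. Separation was narrow, with FAPi replicate 1 just above DPBS replicate 2. Its log2 difference was 2.49 ± 0.68 (edgeR, adjusted p = 0.470, and DESeq2, adjusted p = 0.0136). Stat5a, which shares 72 exon bases with Stat3 on the other strand, had 31.8 to 58.8 CPM in DPBS and 48.8 to 118 CPM in FAPi libraries (log2 difference 0.87 ± 0.40, and 0.65 without DPBS replicate 2). Gab1, a docking protein for cytokine and growth factor receptors, was at 322 CPM in FAPi replicate 3 and between 21.1 and 35.8 CPM in the other 6 libraries. Stat2, which serves interferon receptors, had an estimate of -0.62 ± 0.35, which was -0.36 without DPBS replicate 1 and -0.13 with the erythroid and neutrophil covariate. Among the inhibitors, Socs5 had an estimate of 0.68 ± 0.44, and 0.46 without DPBS replicate 2. The Pias2 estimate of -0.90 ± 0.57 was -0.50 without DPBS replicate 3 and -1.70 with the covariate. The estimate of Pias3, 0.86 ± 0.80, was 2.16, 0.45 and 0.53 without DPBS replicates 1, 2 and 3, 0.054 with the covariate and -0.0013 when FAPi replicate 4 was left out, and that of Socs6, 0.71, was -0.39 when FAPi replicate 3 was left out.

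Genes known to respond to STAT3 had estimates in both directions. Of 18 listed, 10 estimates were higher and 8 lower, with a median log2 difference of 0.25 against 0.01 over all genes, and 0 passed the edgeR test. At an unadjusted p under 0.05 there were 2 of the 18, Myc and Lcn2, against 8.14% of all genes, and they pointed in opposite directions. The groups did not overlap at the same 2, against 7.34% of all genes tested. Myc, a growth regulator, had 74.5 to 102 CPM in DPBS and 110 to 230 CPM in FAPi libraries (log2 difference 0.76 ± 0.33, adjusted p = 0.582 in edgeR). There was no overlap, and FAPi replicate 3 was highest, with a difference of 0.48 without it. Lcn2, which encodes lipocalin 2 and is abundant in neutrophils, had 65.3, 222 and 54.7 CPM in DPBS and 19.5, 28.8, 9.98 and 11.7 CPM in FAPi libraries, without overlap. Its log2 difference was -2.70 ± 0.57 (adjusted p = 0.400 in edgeR and 0.00226 in DESeq2), and -1.78 without DPBS replicate 2. The neutrophil markers had lower estimates in the same mice, 8 of 8. With the mean of the erythroid and neutrophil markers as a covariate the Lcn2 difference was -1.65 ± 0.57 (edgeR, unadjusted p = 0.0163, adjusted p = 0.795). Timp1, a metalloproteinase inhibitor, had 60.5 to 76.8 CPM in DPBS and 54.6 to 146 CPM in FAPi libraries. Bcl6, a transcriptional repressor, had 18.5 to 32.6 CPM in DPBS and 7.37 to 8.87 CPM in 3 FAPi libraries, but 33.9 CPM in FAPi replicate 3.

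**Figure D4:**
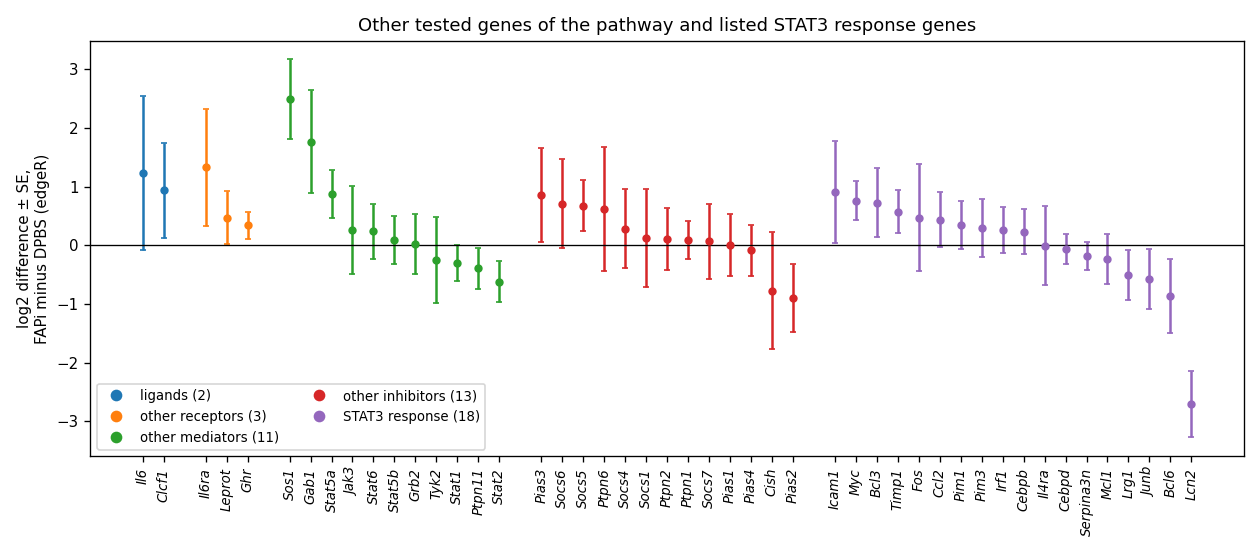
Log2 difference ± SE, FAPi minus DPBS (edgeR), of the tested ligand, receptor, mediator and inhibitor genes other than the 10 and of the 18 listed STAT3 response genes, grouped by role and sorted within each group. Sos1 at 2.49 and Lcn2 at -2.70 are the farthest from 0, and none passed over all genes.

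**Figure D5:**
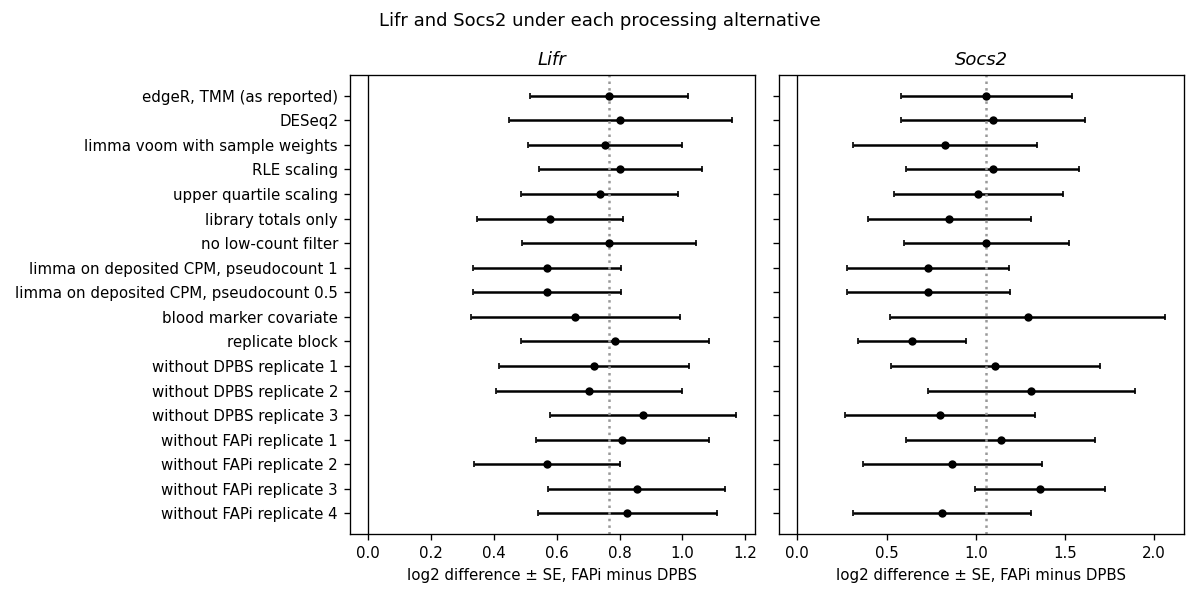
Log2 difference ± SE of Lifr (left) and Socs2 (right), FAPi minus DPBS, with edgeR and TMM scaling at the top and each processing alternative or left-out library below, the dotted line marking the first value. Lifr stayed between 0.57 and 0.87 and Socs2 between 0.64 and 1.36, all above 0.

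The estimates of Lifr and Socs2 were above 0 under all 17 alternatives, shown in the plot of both genes by alternative, and their adjusted p was 0.366 or more for Lifr and 0.422 or more for Socs2, both lowest with DESeq2. Those of Il6st and Il11ra1 were also above 0 under all 17. Every alternative drew on the same libraries, so a kept sign is not independent support. With 3 against 4 mice the intervals are wide. A difference of 2-fold lies outside the 95% interval of 7 of the 10 genes and inside those of Lifr, Il11ra1 and Socs2, and a difference of 1.5-fold lies inside all 10.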

How the data were processed

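Gene counts per library were deposited by the authors as raw, whole-number counts. STAR, HTSeq and the mm10 build appear in the submitters' processing notes without versions, and the annotation, the strand setting and the removal of duplicate reads that the count tables' label implies are not described in them. The deposited CPM tables hold each count divided by the library total, to within 4.6e-05 CPM, and 6 of 7 repeat lines at their end, of which the first was used. Nothing beyond the number of mice in the design says that libraries are separate animals, so p-values measure the spread between these libraries. Of 53801 gene IDs, 53620 matched GENCODE M21, which gave names, coordinates and exon lengths.

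The counts were fitted with edgeR 4.0.16 (R 4.3.3), all 7 libraries, group as the only term, TMM scaling, its expression filter at a minimum count of 10, and the robust quasi-likelihood test. Adjusted p is Benjamini-Hochberg over 12930 genes, with a threshold of 0.05. Standard errors are the log2 difference divided by the root of F. The fit was tested on simulated counts, with 50 genes changed at each fold. At the same threshold it recovered 2% of 2-fold, 28% of 4-fold, 46% of 8-fold and 84% of 16-fold changes. Alternatives were DESeq2 1.42.0 (663 genes had no adjusted p), limma 3.58.1 with voom and sample weights, limma with trend on log2(deposited CPM + 1) and + 0.5, other scalings, no filter, a covariate for erythroid and neutrophil markers, the replicate number as a block, and each library left out. Floors for 0 counts are 3 counts of the library total and cover counting error only.

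The 10 genes and all gene lists were chosen with earlier results of these data known. Named are the 10 genes, the ligands, of each other list the members with an unadjusted p under 0.05 filled up to 4 by the smallest p, the 5 genes most like Lepr among those at 20 CPM or more, the sort genes, and the 2 most abundant markers of a list. One listed gene is not reported here. DPBS and FAPi libraries were compared pairwise for duplicates, and none agreed within counting noise.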

Additional observations from a re-analysis of the deposited data

Results flagged for a closer look

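In the 4 FAPi libraries, the values of 27 named genes were examined for 1 library standing away from its group (Dixon's ratio of gap to range above 0.829). Of these, 6 were past that limit, where normally distributed values would give about 1.35. CPM values need not be distributed that way, and some of the 27 genes were named by their p in these data. The share of all genes tested past the limit was not computed, so the 6 are not read as an excess. The 3 DPBS libraries were not examined this way. Lifr was at 676 CPM in FAPi replicate 2 and between 413 and 451 CPM in the others, and Clcf1 in the same library was at 22.7 CPM against 4.37 to 6.81 CPM. Osmr was low in FAPi replicate 1, at 56.0 CPM against 90.9 to 93.3 CPM. Leprot was at 224 CPM in FAPi replicate 4 against 66.5 to 89.7 CPM. In FAPi replicate 3, Gab1 was at 322 CPM against 21.1 to 35.0 CPM and Bcl6 at 33.9 CPM against 7.37 to 8.87 CPM. The 6 values fall in 4 different libraries, so no single FAPi library carries them.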

How the results depend on the processing

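None of the 10 genes passed an adjusted p of 0.05 under any alternative run. Over all genes edgeR called 0, DESeq2 135, voom 1, the fit with no low-count filter 6 and limma on deposited CPM 6 with either pseudocount, and with a library left out edgeR called 0 to 3, the 3 without DPBS replicate 3. DESeq2 called 1 of the 29 other pathway genes tested, Sos1, and 1 of the 18 STAT3 response genes, Lcn2. Its share over all genes tested was 1.04%. Scaling by library totals moved the median of all genes by -0.171, and limma on deposited CPM, with pseudocounts of 1 and 0.5, by -0.178 and -0.186. Under library totals and these pseudocounts in turn the log2 difference was -0.027, -0.0328 and -0.0328 for Lepr, -0.13, -0.094 and -0.095 for Osmr, -0.042, -0.089 and -0.091 for Jak2, and -0.15, -0.16 and -0.16 for Stat3, all 4 above 0 with TMM. With voom Stat3 was -0.025. With the blood marker covariate Osmr was -0.10, Jak1 -0.022, Stat3 -0.16 and Socs3 0.20. Leaving out a library gave -0.14 to 0.24 for Osmr, -0.012 to 0.30 for Jak2, -0.15 to 0.20 for Stat3, -0.38 to 0.12 for Socs3, -0.070 to 0.70 for Leprot, -0.032 to 2.11 for Gab1, -0.0013 to 2.16 for Pias3 and -0.39 to 1.02 for Socs6. Without the 2 farthest libraries r was 0.326 for Stat3 with Socs3 and 0.163 for Lepr with Il6st. Same-numbered libraries did not deviate together (correlations of -0.0084, -0.018 and -0.051), so the numbers do not pair them. The replicate block called 0 genes, with 718 at an unadjusted p under 0.05, and gave 0.79 for Lifr, 0.64 for Socs2, -0.10 for Stat3 and -0.041 for Leprot. For single genes 428 values kept direction and side of the threshold, 29 reversed and 2 newly passed. The cause of these shifts was not tested.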
